A study of Mus musculus with 5 samples.

Results

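Retinoic acid metabolism, receptors and targets are described here through 9 genes of the 24421 listed in the deposited FPKM tables. They were chosen by name: Cyp26a1, Dhrs3 and Stra6, which remove retinoic acid or handle its precursors, Crabp1 and Crabp2, which bind it in the cytosol, the receptors Rara, Rarb and Rarg, and the germline gene Stra8. All 9 were found in both tables. The mouse RNA-seq series holds 5 libraries, 1 per condition, so no difference between them has a replicate check and no p-value is given. The first table holds MEFs (fibroblasts grown from E13.5 CF-1 embryos), iPSCs (an established line of reprogrammed cells) and untreated V6.5 cells, the line of mESCs. The second table holds V6.5 cells with a non-targeting control shRNA (NTC) and V6.5 cells with a Gldc shRNA (shGldc), which suppresses glycine decarboxylase, the first enzyme of the glycine cleavage system. The iPSCs and all V6.5 cells were grown without feeder cells in medium with serum replacement, a little serum and leukaemia inhibitory factor, and the MEFs in medium with serum. The labels name no addition of retinoic acid to any of these cultures, and they name a single Gldc shRNA, so that other effects of that hairpin cannot be told apart from those of low Gldc.

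Retinoic acid is made from vitamin A (retinol) by oxidation, first to retinaldehyde and then to the acid. It binds nuclear receptors (RARs) that sit on DNA as pairs with retinoid X receptors (RXRs), often at direct repeats of a short half-site. In embryonic stem cells, added retinoic acid drives differentiation, and the genes that it induces first include those for its own removal, such as Cyp26a1, as well as Rarb, Stra6, Stra8 and the 3′ Hox genes.

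The repeats that these receptors are known to bind were searched in RefSeq promoters (build GRCm38.p6, a short window around each annotated start), since several of the 9 genes moved together after Gldc knockdown. Of the 9 genes, 8 had a promoter in the RefSeq table, with 17 starts in all. The half-sites searched were AGGTCA and AGTTCA, and both of these with G as the first base, on both strands, as direct repeats with a spacing of 1, 2 or 5 bases (DR1, DR2 and DR5). A DR5 was found before the starts of Cyp26a1 and Rarb, at 16 to 32 and 37 to 53 bases upstream of the RefSeq starts, and in 0.0577% of all 20788 promoters searched. These repeats are printed with the half-sites in capitals, each 5′ to 3′ on the strand that carries it, because among the 8 genes searched these are the only promoters with such a repeat. The Cyp26a1 repeat lies on the minus strand at chr19:37697776-37697792, outside annotated exons, and the Rarb repeat on the minus strand at chr14:16575513-16575529, which is also in an annotated exon of a longer Rarb transcript.
Cyp26a1: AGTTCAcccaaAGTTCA
Rarb: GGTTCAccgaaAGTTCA
The stretch in front of Cyp26a1 (chr19:37697558-37697797, plus strand, up to the first exon of the GENCODE annotation, which begins upstream of the RefSeq start) is shown with the same repeat in capitals, read on the gene's strand.
Cyp26a1 upstream: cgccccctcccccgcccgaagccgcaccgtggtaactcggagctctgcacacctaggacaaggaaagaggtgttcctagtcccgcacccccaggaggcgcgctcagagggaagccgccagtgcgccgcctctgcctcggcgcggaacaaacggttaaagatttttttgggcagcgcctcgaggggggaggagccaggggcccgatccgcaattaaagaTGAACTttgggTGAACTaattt
No DR1, DR2 or DR5 of these letters was found in the promoter windows of Dhrs3, Stra6, Crabp1, Rara, Rarg or Stra8. A DR1 was held by 0.207% of all promoters and a DR2 by 0.0818%. A match is a description of the letters only, and no binding was measured.

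FPKM is the number of fragments per kilobase of transcript, scaled to the mapped fragments of the library, so that levels can be set side by side between genes of different length. Its sum over all genes lay between 466650 and 576470 in the 5 libraries. From the spacing of the lowest values, depth was estimated at 22200000 to 24700000 fragments in the first table. In the second table, spacings for 29100000 and 14500000 fragments in NTC and for 28800000 and 14300000 in shGldc were found about equally often, and the lower depths were used for intervals. The intervals given with a fold change are 95% Clopper-Pearson intervals on these estimated fragments. They cover counting error only, not the spread between cultures. Folds are plain quotients of FPKM, with nothing added. Log2 ratios are differences of log2(FPKM + 0.1), so that changes of genes with little signal come out too small, and a gene was counted as higher or lower when the log2 ratio reached 2-fold with an FPKM of 1 or more in either library. The labelled cell types were checked with 10 pluripotency and 10 fibroblast markers. The pluripotency markers summed to 25.4 in MEFs and to between 3845 and 7113 in the other 4 libraries, and the fibroblast markers to 7209 in MEFs and to between 5.93 and 55.5 in the others. A list of 8 macrophage markers summed to 318.1 in MEFs, 20.6 in iPSCs and 10.9 in untreated V6.5 cells. All 8 reached an FPKM of 1 in MEFs, so that library also held macrophage transcripts. Their part in the MEF levels of the genes described here was not tested. Gldc, the targeted gene, was at 0.123 in MEFs, 70.8 in iPSCs, 59.7 in untreated V6.5 cells, 74.7 in NTC cells and 2.07 in shGldc cells, so that 2.77% of the NTC level was left.

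**Figure D1:**
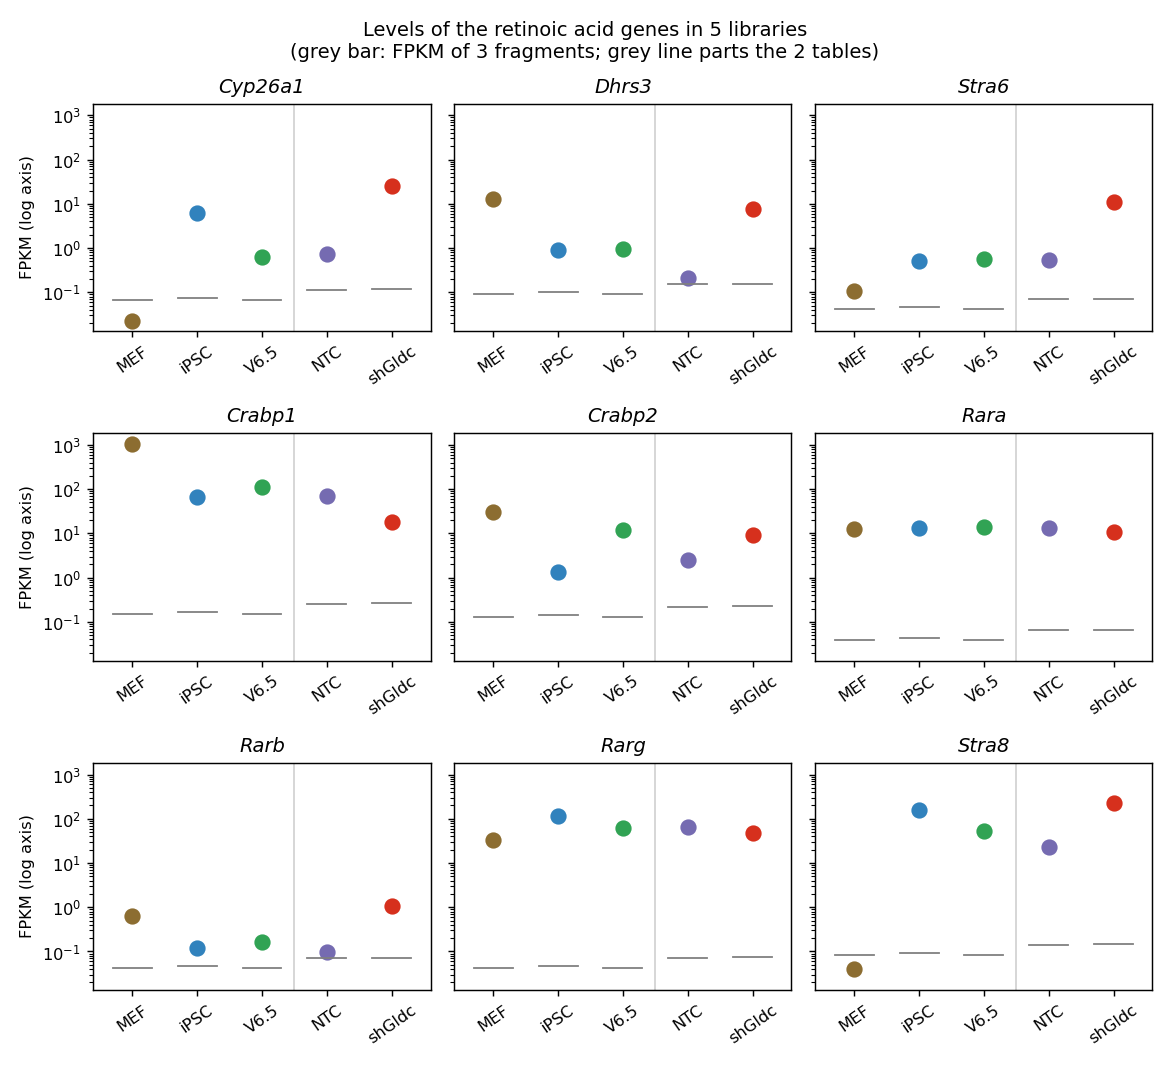
FPKM of each of the 9 genes on a log axis, 1 point per library, with a grey bar at the FPKM of 3 fragments. Cyp26a1, Stra6, Rarb and Stra8 have their highest point in shGldc cells, Crabp1, Crabp2 and Dhrs3 in MEFs, and the 5 points of Rara lie between 11.02 and 13.6.

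In shGldc cells, Cyp26a1, Dhrs3 and Stra6 were between 19.8-fold and 35.7-fold higher than in NTC cells, Stra8 was 9.91-fold higher, and Rarb and Crabp2 were also higher. Crabp1 was 4.02-fold lower, while Rara and Rarg, the most abundant receptors, moved by less than 2-fold. Of the 9 genes, 6 were counted as higher, against 8.97% of the 11969 genes that passed the filter, and 1 as lower, against 7.68%. Of the 6, Cyp26a1, Dhrs3, Stra6 and Rarb passed the filter only through the shGldc library. They had to be higher there, though not necessarily by 2-fold, and their number supports nothing by itself. The median log2 ratio of the 9, 2.59 against 0.04 for all genes, is the value of Rarb and supports nothing either. Of the 9 genes, 5 had an FPKM of 1 or more in NTC cells, and of these Crabp2 and Stra8 were higher, Crabp1 was lower, and Rara and Rarg were neither. Of all genes with such a level in NTC cells, 4.93% were counted as higher. Over untreated V6.5 cells, the log2 ratio of Crabp2 was -0.37.

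Cyp26a1 encodes the cytochrome P450 that oxidises retinoic acid and so clears it from the cell. Its FPKM was 0.732 in NTC cells and 25.7 in shGldc cells, a 35.1-fold difference with a counting interval of 22.3 to 58.7. Among all genes that passed, its ratio of 4.95 was the number 30 rise. Untreated V6.5 cells of the separately made table were at 0.631, close to NTC cells, so that the ratio of shGldc over untreated cells was 5.14. iPSCs were at 6.24, between the other stem cell libraries and shGldc cells. MEFs were at 0.0228, which is about 1 fragment and under the floor of 3. Cyp26a1 has 7 exons on the plus strand of chromosome 19 from 37697798 to 37701536, it overlaps no other annotated gene, and its DR5 stands just upstream.

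Dhrs3 encodes a reductase that turns retinaldehyde back into retinol and thereby lowers the supply of retinoic acid. Its FPKM was 0.214 in NTC cells, about 4 fragments, and 7.64 in shGldc cells. This difference was 35.7-fold, with a wide counting interval of 14.2 to 138.6. The NTC level was itself below that of untreated V6.5 cells (0.960) and iPSCs (0.893). Against untreated cells, shGldc cells were 7.96-fold higher. MEFs had the highest level of the 5 libraries, 13.1.

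Stra6 encodes the membrane receptor through which cells take up retinol from its carrier in the blood. It was at 0.105 in MEFs, 0.514 in iPSCs, 0.567 in untreated V6.5 cells, 0.549 in NTC cells and 10.8 in shGldc cells. The 3 stem cell libraries without the Gldc shRNA lay close together, and shGldc cells stood 19.8-fold above NTC cells (counting interval 13.2 to 32.0). The ratio of 4.08 was the number 65 rise among all genes. Stra6 lies on the plus strand of chromosome 9 from 58063788 to 58153996, and the annotated genes within its span share no exonic base with it.

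Stra8 is named for its induction by retinoic acid and is needed for germ cells to enter meiosis. It was high in all stem cell libraries before any knockdown, at 155.5 in iPSCs, 52.5 in untreated V6.5 cells and 22.6 in NTC cells. In shGldc cells, it reached 224.1, which placed it at number 352 of all genes by level in that library. The difference from NTC cells was 9.91-fold (counting interval 9.02 to 10.9), and from untreated V6.5 cells 4.27-fold, since NTC cells were 2.32-fold below untreated cells. Of 18 other symbols listed for germline genes of meiotic entry, 16 had a row and 7 passed in this comparison. Of these 7, 3 were higher, against 8.97% of all genes, and 1 was lower, against 7.68%. Dpep3 passed only through shGldc cells and Stag3 only through NTC cells, so both had to differ. Over untreated V6.5 cells, 8 passed, with 2 higher, against 9.89% of all genes, and 4 lower, against 13.9%. Of these 4, Sycp3 and Stag3 passed only through V6.5 cells and could only be lower, so nothing is read from these counts. Dazl, an RNA-binding protein of germ cells, went from 3.66 to 15.5 and Rec8, a meiotic cohesin subunit, from 15.4 to 56.6. Stag3, another meiotic cohesin subunit, went from 4.603 to 0.846, and Sycp3, of the synaptonemal complex, was at 0.588 and 0.384. The sum of 8 germ cell markers was 53.9 in NTC and 101.8 in shGldc cells, while the median log2 ratio of the 8 was -0.18. None of the 8 was at 0 in either library. Dazl, Ddx4 and Sycp3 are on this list and on that of meiotic entry. Of the 6 markers that passed, Dazl and Nanos3 were higher, against 8.97% of all genes, and the other 4 were neither higher nor lower. Over untreated V6.5 cells, 7 passed, with 3 higher, against 9.89% of all genes, and 3 lower, against 13.9%. Of the lower, Sycp3 passed only through V6.5 cells, so it could only be lower. The part of these marker levels in the Stra8 values was not tested.

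**Figure D2:**
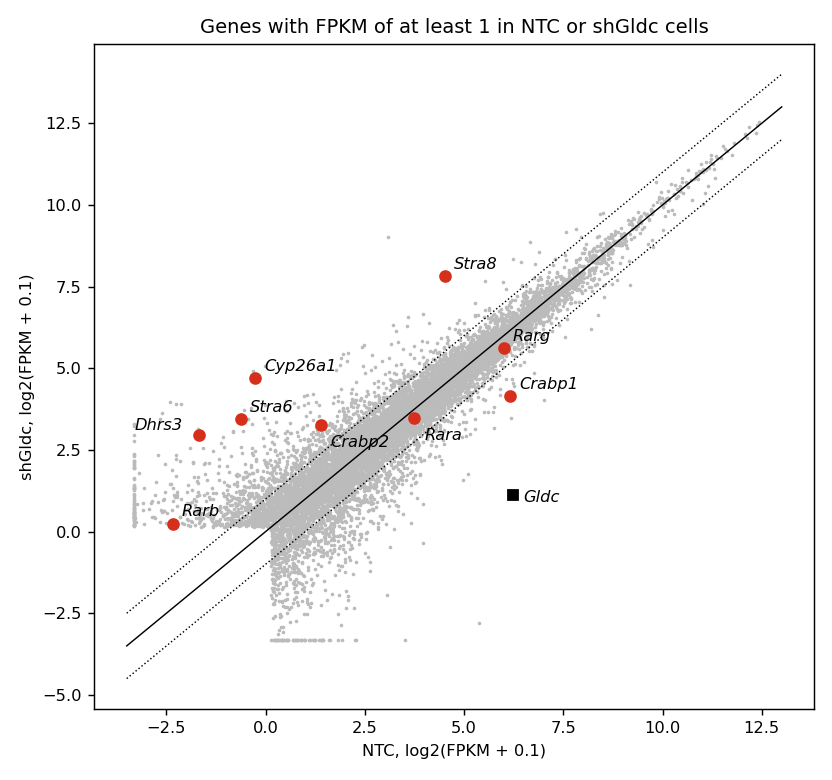
Levels in NTC cells (x axis) and shGldc cells (y axis) on the log2(FPKM + 0.1) scale for the 11969 genes with an FPKM of 1 or more in either library, with the 9 genes in red and Gldc in black. Points above the upper dotted line are at least 2-fold higher in shGldc cells: 6 of the 9 genes lie there, Rara and Rarg lie between the dotted lines, and Crabp1 lies below them with Gldc.

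The cytosolic binding proteins went in opposite directions. Crabp1, which has been linked to the breakdown of retinoic acid, was at 71.3 in NTC cells and 17.7 in shGldc cells, a 4.02-fold lower level (counting interval 3.45 to 4.72). Untreated V6.5 cells were at 110.4, so shGldc cells lay below both libraries of V6.5 cells without the Gldc shRNA. Crabp2, which hands retinoic acid to its receptors in the nucleus, was at 2.52 in NTC cells and 9.39 in shGldc cells, 3.73-fold higher (counting interval 2.53 to 5.62). Untreated V6.5 cells were at 12.2, however, above shGldc cells, so that the direction for Crabp2 was set by the choice of control: the log2 ratio was 1.86 over NTC and -0.37 over untreated cells. In their sum, Crabp1 made up 96.6% in NTC cells and 65.4% in shGldc cells, with the FPKM of Crabp1 at 28.3 times that of Crabp2 in the former and 1.89 times in the latter. In untreated V6.5 cells, it was 9.08 times.

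Among the receptors, Rarg was the most abundant in every library and Rarb the least. Rarg stood at 63.9 with the control shRNA and at 48.8 with the Gldc shRNA, and untreated V6.5 cells were at 61.9. Rara was at 13.2, 11.02 and 13.6 in the same order. Both were lowest in shGldc cells among the V6.5 libraries, by 1.31-fold for Rarg and 1.20-fold for Rara relative to NTC cells, which is less than the 2-fold limit, and without replicates these differences cannot be told from variation between cultures. Rarb, a receptor gene known to be induced by retinoic acid, was at 0.0972 in NTC cells, about 4 fragments, and 1.09 in shGldc cells, about 45 fragments. The quotient of FPKM was 11.2-fold (counting interval 4.16 to 43.7), while the log2 ratio with the pseudocount was 2.59. Over untreated V6.5 cells, the quotient was 6.52-fold. With a pseudocount of 1, the log2 ratio over NTC was 0.93, under the 2-fold limit, and Rarb did not pass the filter with a common upper quartile or with an FPKM of 5 or more. Despite this, Rarb held only 1.78% of the summed RAR level in shGldc cells, against 0.126% in NTC cells. Rarb, at 16430839 to 16819156 of chromosome 14 (minus strand), shares exonic bases with Top2b on the other strand, so that 34.1% of its 50-base stretches also occur there or in Gm48162, an antisense gene. Since the strand setting of the counting is not given in the sources used here, reads of both genes cannot be told apart there. Top2b, a DNA topoisomerase, was at 2.22 in NTC and 3.39 in shGldc cells, a 1.53-fold difference.

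**Figure D3:**
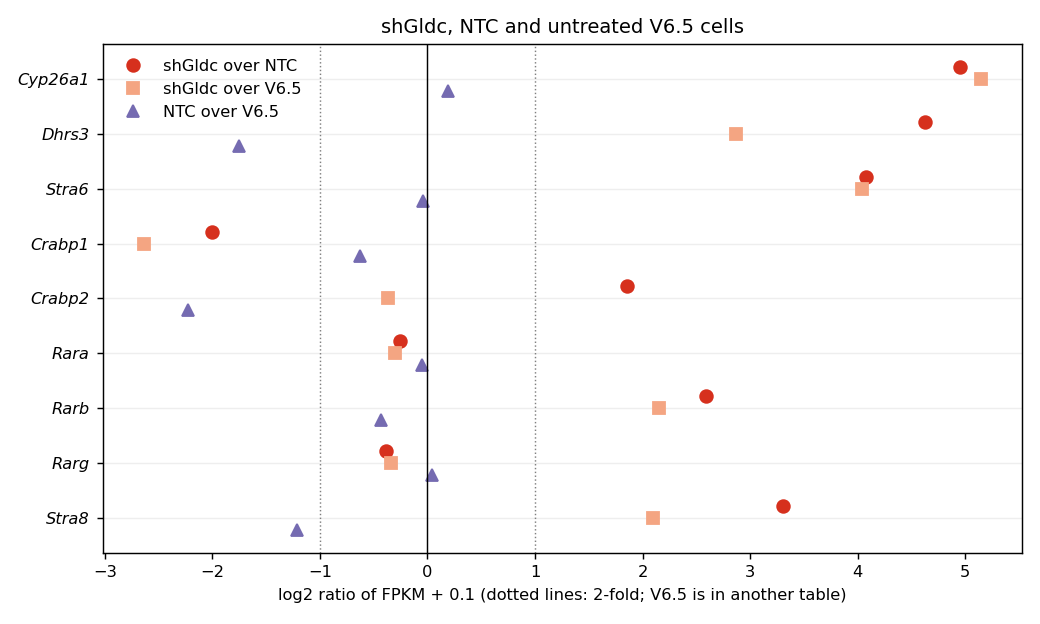
Log2 ratios of the 9 genes for shGldc over NTC (circles), shGldc over untreated V6.5 (squares) and NTC over untreated V6.5 cells (triangles), the last 2 across separately made tables, with dotted lines at 2-fold. Cyp26a1, Dhrs3, Stra6, Rarb and Stra8 lie beyond 2-fold to the right for both controls and Crabp1 beyond 2-fold to the left, while the circle and the square of Crabp2 lie on opposite sides of 0.

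The NTC and untreated libraries give a measure of how far apart V6.5 cells without the Gldc shRNA can lie, although this comparison crosses the tables. Of the 12048 genes that passed, 4.99% were counted as higher in NTC cells and 10.3% as lower. Crabp2 (log2 ratio of -2.23, from 12.2 to 2.52) and Stra8 (from 52.5 to 22.6) were among the lower. Dhrs3, which did not pass, was 4.48-fold lower in NTC cells, with a log2 ratio of -1.75. Crabp1 and Rarb had log2 ratios of -0.63 and -0.43, and Cyp26a1, Stra6, Rara and Rarg of 0.19, -0.04, -0.05 and 0.05. Rarb, Cyp26a1 and Stra6 did not pass the filter here either. Both comparisons of shGldc cells share that library, and so they are not independent of each other.

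Genes that retinoic acid is known to induce elsewhere in the genome were described by a list of 37, none of them among the 9. Of these, 24 passed, 18 were higher in shGldc cells, against 8.97% of all genes, and none was lower, against 7.68%. Many had little signal in NTC cells: 14 passed only through shGldc cells, 13 of the 18 among them. These had to be higher there, though not by 2-fold, and Ret, also among the 14, stayed under that limit. Of the 10 with an FPKM of 1 or more in NTC cells, 5 were higher, against 4.93% of all such genes. The median log2 ratio over all 37 was 1.20. None of the 20 targets with a RefSeq promoter held a DR1, DR2 or DR5 of the searched letters. Hoxb1 and Hoxb2, which pattern the hindbrain, had the highest log2 ratios of the list (6.60 and 6.24). Hoxb1 was listed at 0 in NTC cells and at 9.62 in shGldc cells, and at 0.124 in untreated V6.5 cells. Hoxb2 was at 0.0636 and 12.2, and Hoxb4 at 0.341 and 4.55. Gata6, a transcription factor of endoderm, went from 0.462 to 8.22. Cdx1, a caudal homeobox gene, went from 156.8 to 328.1, but untreated V6.5 cells were at 12.1, and the log2 ratio of NTC over untreated cells was 3.68. Tgm2, a transglutaminase often used as a marker of the response, had the lowest ratio, with 8.997 in NTC and 5.55 in shGldc cells. Hoxb2, Gata6 and Tgm2 overlap exons of a gene on the other strand, and reads of both cannot be told apart there.

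Some of these targets also mark endoderm, and 6 of the 10 endoderm markers (Gata4, Gata6, Sox17, Foxa2, Dab2 and Lama1) are on both lists. The summed level of the endoderm markers was 15.1 for NTC and 34.7 for shGldc, and 2 and 5 of the 10 reached an FPKM of 1. Afp and Ttr, which mark visceral endoderm, were at 0 in both. The 11 neural and mesoderm markers summed to 68.0 and 65.3, the 10 pluripotency markers to 4424 and 3845, and the 10 fibroblast markers to 11.5 and 5.93. Col3a1, Dcn, Lum and Postn were at 0 in both libraries, as were 7 of the 8 macrophage markers. The part of other cell types in the levels of the 9 genes was not tested. In bulk RNA, fewer cells of a type and less RNA per cell cannot be told apart.

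**Figure D4:**
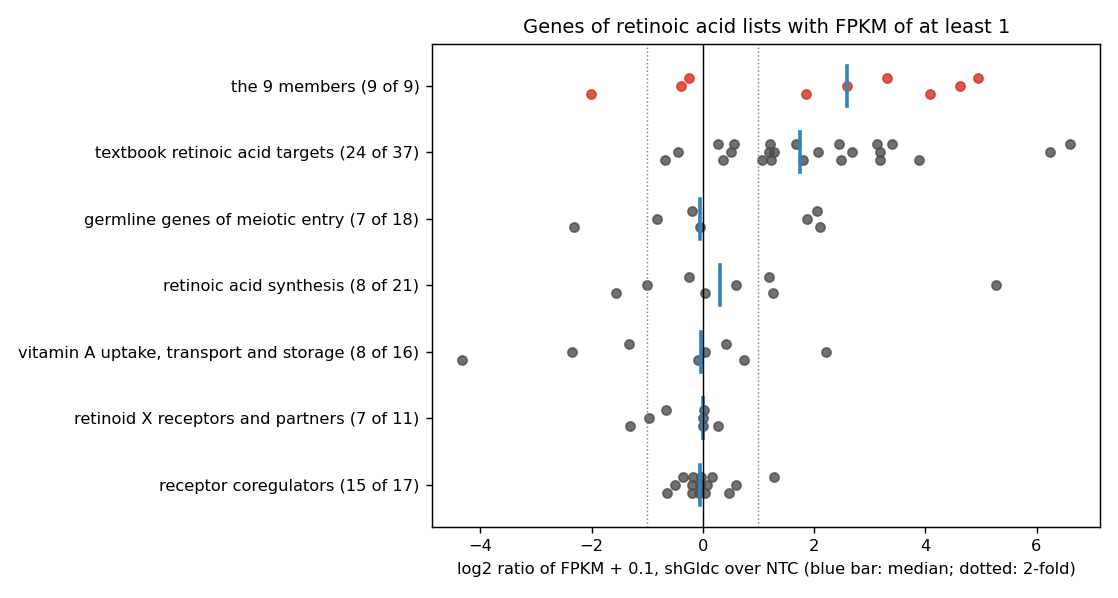
Log2 ratio of shGldc over NTC for the genes of 7 lists with an FPKM of 1 or more in either library, 1 point per gene, with the median of each list as a blue bar and dotted lines at 2-fold. The medians of the 9 genes (2.59) and the textbook targets (1.74) include genes that passed only through shGldc cells, and the medians of the other 5 lists lie between -0.06 and 0.32.

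The enzymes that make retinoic acid showed no common direction. Of 21 listed, 8 passed, 3 were higher, against 8.97% of all genes, and 2 lower, against 7.68%. Rdh12 and Adh1, 2 of the 3, passed only through shGldc cells, and of the 6 with an FPKM of 1 or more in NTC cells, 1 was higher and 2 were lower. Rdh10, the main enzyme that oxidises retinol to retinaldehyde in the embryo, went from 1.32 in NTC cells to 3.32 in shGldc cells. Aldh1a2, which makes retinoic acid from retinaldehyde, went the other way, from 3.60 to 1.15, and untreated V6.5 cells were at 1.31, near the shGldc value. Adh1, an alcohol dehydrogenase, was listed at 0 in NTC cells, at 0.177 in untreated V6.5 cells and at 3.76 in shGldc cells. It shares exonic bases with an antisense gene. Aldh1a1 was listed at 0 in both libraries and Aldh1a3 did not reach 0.1 in either.

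Of 16 genes for uptake, transport and storage of vitamin A, 8 passed, and 1 was higher in shGldc cells, against 8.97% of all genes, and 3 lower, against 7.68%. Of the 3, Rbp4 and Rbp7 passed only through NTC cells and so had to differ. Rbp4, the secreted retinol carrier that Stra6 binds, went from 3.52 to 0.609. Rbp7, a cellular retinol-binding protein, was at 1.90 in NTC cells and 3.88 in untreated V6.5 cells and was listed at 0 in shGldc cells. Lrat, which esterifies retinol for storage, was listed at 0 in all 5 libraries. Beyond Cyp26a1, the related Cyp26b1 and Cyp26c1 were listed at 0 in NTC cells and were at 0.182 and 0.293 in shGldc cells, with Cyp26b1 at 0.294 and Cyp26c1 at 0 in untreated V6.5 cells.

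Of 11 RXRs and other receptors that pair with them, 7 passed, none was higher, against 8.97% of all genes, and 1 was lower, against 7.68%. This was Vdr, the vitamin D receptor (1.17 and 0.411), which passed only through NTC cells. Thra, a thyroid hormone receptor, was at 5.22 and 2.63, a log2 ratio of -0.96 just short of the limit, and untreated V6.5 cells were at 7.86. Its exons overlap those of Nr1d1 on the other strand. Rxrb, the most abundant RXR in each library, was at 38.8 and 47.0, and Rxra at 9.59 and 9.57. Of 17 coregulators, 15 passed, none was lower, against 7.68% of all genes, and 1 was higher, against 8.97%. The higher gene was Nrip1, a corepressor that retinoic acid induces, at 0.780 and 2.03. The median log2 ratio of the coregulators was -0.06. Nrip1 passed the filter only through shGldc cells.

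MEFs differed from both pluripotent lines in a different way. Crabp1, Crabp2 and Dhrs3 were higher in MEFs, Stra8 was near 0 there, and Rara lay between 12.5 and 13.6 in all 3 libraries. In V6.5 cells over MEFs, 6 of the 9 genes passed the filter, with 1 higher, against 30.3% of all genes, and 3 lower, against 23.3%. In iPSCs over MEFs, 7 passed, with 3 higher, against 31.5% of all genes, and 3 lower, against 21.3%. Nothing is read from these counts in so short a list, since these are comparisons in which 53.7% (V6.5 cells) and 52.7% (iPSCs) of all genes differed by 2-fold in 1 direction or the other. Stra8 and, for iPSCs, Cyp26a1 passed only through the pluripotent library, and Dhrs3 only through MEFs. The median log2 ratio of all genes was 0.25 in V6.5 cells and 0.31 in iPSCs over MEFs, and both comparisons share the MEF library.

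**Figure D5:**
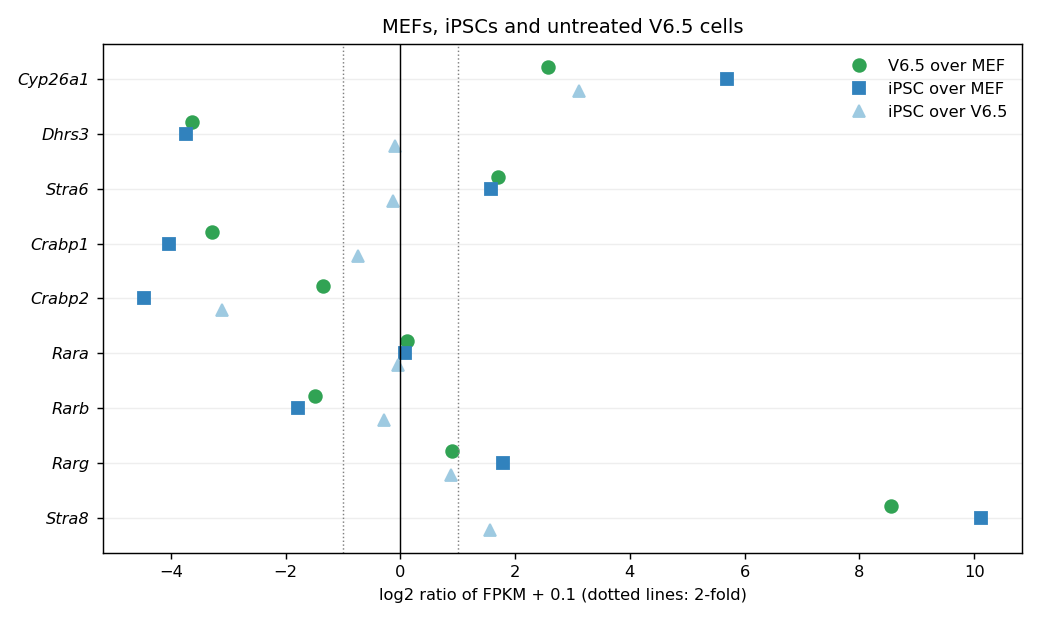
Log2 ratios of the 9 genes for untreated V6.5 cells over MEFs (circles), iPSCs over MEFs (squares) and iPSCs over V6.5 cells (triangles), with dotted lines at 2-fold. Stra8 lies farthest to the right for both ratios to MEFs (8.55 and 10.11), Dhrs3, Crabp1, Crabp2 and Rarb lie to the left for both, and the triangles of Cyp26a1 (3.12) and Crabp2 (-3.11) mark the largest differences between the pluripotent lines.

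Crabp1 was among the most abundant transcripts of the MEF library, where it stood at 1073 and was the number 59 gene. Its level was 110.4 in V6.5 cells, 9.72-fold lower, and 65.9 in iPSCs, 16.3-fold lower. The fibroblast markers of the V6.5 library summed to 0.769% of their MEF level, and their part in the Crabp1 level was not tested. Crabp2 was at 31.3 in MEFs, 12.2 in V6.5 cells and 1.32 in iPSCs. Dhrs3 went from 13.1 in MEFs to 0.960 and 0.893, which is 13.6-fold and 14.7-fold lower. Rarb, at 0.650 in MEFs, did not pass the filter and was at 0.166 and 0.118 in the pluripotent cells. Top2b, with which it shares exonic bases, was 2.95-fold and 2.97-fold lower than in MEFs in these libraries.

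Stra8 was at 0.0406 in MEFs, about 1 fragment and under the floor, and at 52.5 and 155.5 in V6.5 cells and iPSCs. The folds of 1294 and 3834 have counting intervals of 338.1 to 74532 and 1002 to 220739. Not even their order of size is given by the data, only the lower limits. Rarg was at 33.0 in MEFs, 61.9 in V6.5 cells and 114.1 in iPSCs, and it held 71.5%, 81.8% and 89.6% of the summed RAR level. Rara, at 12.5, 13.6 and 13.2, was the receptor with the steadiest level, and the sign of its ratio to MEFs depended on the scaling (log2 ratios from -0.12 to 0.13 in V6.5 cells and from -0.24 to 0.09 in iPSCs). Cyp26a1 was at 0.631 in V6.5 cells and 6.24 in iPSCs.

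Of the enzymes of synthesis, 11 passed in each comparison with MEFs. In V6.5 cells, none was higher, against 30.3% of all genes, and 6 were lower, against 23.3%. Of the 6, however, 5 passed only through MEFs and so could only be lower. In iPSCs, 1 was higher, against 31.5% of all genes, and 8 were lower, against 21.3%. The higher gene, Rdh12, passed only through iPSCs, and 4 of the 8 lower genes passed only through MEFs. Over all 21 enzymes, the median log2 ratio was -0.55 in V6.5 cells and 0.00 in iPSCs. Adh1 was at 10.3 in MEFs, 0.177 in V6.5 cells and 0.637 in iPSCs. Aldh1a1 was at 2.89, 0.0397 and 0.0223, and Aldh1a2, the form best known in the embryo, at 5.57, 1.31 and 2.04. Rdh10 was at 5.75, 0.821 and 1.80. Of the germline genes of meiotic entry, 9 passed in V6.5 cells over MEFs and 10 in iPSCs over MEFs. The 7 and 8 of them that were higher, against 30.3% and 31.5% of all genes, all passed only through the pluripotent library, so they had to differ and nothing is read from their number. Among them was Rec8, at 0.0383 in MEFs, 27.1 in V6.5 cells and 21.3 in iPSCs.

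Between the pluripotent lines, iPSCs were higher in Cyp26a1 and Stra8 and lower in Crabp2. Of the 6 genes that passed, 2 were higher, against 10.1% of all genes, and 1 was lower, against 7.44%. Cyp26a1 passed only through iPSCs. It was 9.89-fold higher in iPSCs (counting interval 6.65 to 15.1), Stra8 2.96-fold higher (2.81 to 3.13), and Crabp2 9.19-fold lower (6.27 to 14.4). Rarg was 1.84-fold higher and Crabp1 1.68-fold lower, short of the 2-fold limit. Of the 25 textbook targets that passed, 13 were higher in iPSCs, against 10.1% of all genes, and 3 lower, against 7.44%. Of the 13, 6 passed only through iPSCs, Pdx1 and Gata6 among them, and the 3 lower genes passed only through V6.5 cells. Of the 14 with an FPKM of 1 or more in both lines, 7 were higher and none was lower. The share of all genes under this filter was not computed, so nothing is read from these counts. The median log2 ratio over all 37 was 0.54. Pdx1 was at 0.230 in V6.5 cells and 1.98 in iPSCs, Gata6 at 0.646 and 4.46, and Cdx1 at 12.1 and 29.8, whereas Hoxb1 was at 0.124 and 0.167. The endoderm markers summed to 10.8 in V6.5 cells and 32.6 in iPSCs, with Afp and Ttr at 0 in both, and the germ cell markers to 48.1 and 82.5. Their part in these differences was not tested.

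The genes whose profile over the 5 libraries was most like that of each of the 9 were taken from 9879 genes with an FPKM of 5 or more in any library, by the root mean square difference of centred log2 levels. Rarb did not reach that level. Among the 3 nearest to Stra6 were Wnt8a, a signalling ligand, and Crxos, both with a difference of 0.59. Among the 3 nearest to Dhrs3 were Hoxb7 (0.50) and Hoxc9 (0.56). Cyp26a1 was less closely matched, by Aqp8 (0.60), Ffar3 (0.69) and Bhmt (0.83), and Stra8 least closely, by Tex19.1 (0.81), Cldn6 (0.89) and Elf3 (0.93). Crabp1 was nearest to Crispld2 (0.22), Pcolce (0.23) and Gng8 (0.23), and Crabp2 to Lgals9 (0.45), Rab3il1 (0.54) and Map6 (0.62). The steadier receptors had close matches, Rara with Amacr and Eif3h (0.04 each) and Mtpap (0.05), and Rarg with Gstm6 (0.05), AK010878 (0.09) and Pmaip1 (0.10). With 5 libraries, such likeness is a description and many genes can share a profile.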

How the data were processed

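RNA was extracted with TRIzol and sequenced on an Illumina HiSeq instrument. The authors mapped reads to mm10 with TopHat2 (2.1.0), assembled transcripts with StringTie (1.3.4d) and computed expression with Ballgown, and deposited FPKM values in 2 separately made tables of 24421 genes. SAMtools (1.7) is also named in the submitters' processing notes. The annotation, strand setting and filters are not given in the sources used here.

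Log2 ratios were taken as differences of log2(FPKM + 0.1), and genes with an FPKM of 1 or more in either library were kept. With 1 library per condition, no test was run. Fragments were estimated from the spacing of low FPKM values times transcript length over 5723 genes with a single GENCODE M21 transcript. The depth estimate and the counting of higher and lower genes were tested on simulated data, and the other steps were not. The 9 genes and all lists were chosen with earlier results of these data known. Genes were named by rule: all 9, the genes of each other list with the highest or lowest ratio or past 2-fold, the 3 nearest profiles, and Gldc. Some list genes are also given as counterparts of a named gene, chosen after their values were seen. Of the listed symbols, Rbpr2, Meiosin and Gm4969 had no row. Some genes that the rule names are not reported here. Alternatives are in the closing section. Computation used Python (3.11.15) with scipy (1.17.1), pandas (2.3.3) and numpy (2.4.6), and plots used matplotlib (3.10.9).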

Additional observations from a re-analysis of the deposited data

How the results depend on the processing

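No replicate could be left out, since each condition was 1 library. Shifts in a ratio were set against 0.59, a robust SD over all genes for NTC relative to untreated V6.5 cells, and shifts in a count against 1.5 times. The pseudocount moved the ratios of low genes most: the median log2 ratio of the 9 genes in shGldc over NTC cells was 2.59 as reported, 1.56 with a pseudocount of 1 and 3.31 with one of 0.01. Without a filter on FPKM, 3 of the 9 genes in place of 1 were higher in V6.5 cells than in MEFs, and the median log2 ratio went from -0.62 to 0.12, because 3 more genes entered. Set against untreated V6.5 cells in place of NTC cells, Crabp2 in shGldc cells turned to a log2 ratio of -0.37. The cause was not tested. The other counts and medians of the 9 genes moved by less than these limits under the alternatives run, namely the 2 pseudocounts, no filter, an FPKM of 5 or more, a common FPKM sum, a common upper quartile, centring on the median, and the other control. Depth limits Rarb and Dhrs3 in NTC cells and Cyp26a1 and Stra8 in MEFs, each with 1 to 4 estimated fragments. No paired analysis was possible because each condition had a single library.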

Other observations

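Apart from Cyp26a1 and Rarb, 10 other genes had a DR5 of the searched letters in a RefSeq promoter. Of all 12, 4 reached an FPKM of 1 in NTC or shGldc cells, 2 of them (Cyp26a1 and Rarb) were at least 2-fold higher in shGldc cells, against 8.97% of all genes, and 1 was at least 2-fold lower, against 7.68%. Cyp26a1 and Rarb passed only through shGldc cells, and Syndig1 only through NTC cells, so all had to differ and nothing is read from these counts. The lower gene was Syndig1, which encodes a synaptic membrane protein, at 2.33 in NTC and 0.575 in shGldc cells, and Blvrb, a biliverdin reductase, was at 46.1 and 38.8. These genes were named after their values were seen.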
